A study of Canis lupus familiaris with 2 samples.

Results

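The microRNAs (miRNAs) of the miR-29 family and miR-21 are among the most studied miRNAs of fibrosis, and both are described here in the serum of dystrophic and normal dogs. All dog probes whose number after miR- was 29 or 21 were taken, whatever letter followed. This gave 4 miRNAs, cfa-miR-29a, cfa-miR-29b, cfa-miR-29c and cfa-miR-21, each with 1 spot per array. They are 4 of all the dog miRNAs on the array, of which 142 were detected in both sera, 17 counted as detected only in the normal pool, 46 only in the dystrophic pool and 86 on no array. For 1 of the 17, miR-34a, the dystrophic spot was above the detection limit but marked unusable. All dogs came from the CXMD_J colony, which has canine X-linked muscular dystrophy and is a model of Duchenne muscular dystrophy. The dystrophic dogs were CXMD_J dogs, and the controls were normal dogs of the colony. Both groups were sampled at 2 months of age. The sera of 3 dogs were combined per group and each pool was read on 1 array, so no test between the groups was possible and no spread between dogs can be given.

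A miRNA is a short RNA that lowers the output of the messenger RNAs it pairs with. The miR-29 family represses messenger RNAs of the extracellular matrix, among them those of collagens, elastin and fibrillin, and transforming growth factor β lowers its expression, so it is regarded as antifibrotic. miR-21 is raised in activated fibroblasts, where it represses SPRY1, an inhibitor of growth factor signaling, and SMAD7, an inhibitor of transforming growth factor β signaling, and it is regarded as profibrotic. Dystrophic muscle is replaced in part by fibrous tissue. Serum miRNAs are cell-free, and more releasing cells and more miRNA released per cell cannot be told apart.

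The brightness of a spot, in scanner units, was read against the blank spots of its array, which carry no probe. The signal of a miRNA is its spot minus the mean of the blank spots (the outermost 5% at each end left out), scaled so that the detected dog miRNAs of the array had a median of 25. A miRNA counted as detected when its spot exceeded that mean by more than 2 SD of the same blank spots. Normal serum gave 159 detected dog miRNAs and dystrophic serum 188, and the 142 found in both are called shared. The SD of the blank spots, on the scale of the signals, was 4.09 for normal and 3.40 for dystrophic serum. Errors given with ratios below are this SD carried through to the ratio (± 1 SD). They describe the noise of single spots, taken from the blank spots, and hold nothing of the variation between dogs, RNA preparations or arrays. Leaving out the outermost blank spots also makes them smaller. With all blank spots the SD was 7.27 (normal) and 7.19 (dystrophic) scanner units, compared with 3.94 and 4.12 for those used. Where a signal is small, the spread of its ratio is not symmetric, so the ± is only approximate.

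All 4 miRNAs were detected in both sera, and all 4 were dim. Detection says little at this brightness, since the limit was also passed by 21 of the 32 negative-control spots of the normal array and by 27 of the 32 of the dystrophic array. Ratios are dystrophic over normal. None of the 4 had a ratio above 2, whereas 13.4% of the 142 shared miRNAs did. A ratio of 0.5 or less was found for 1 of the 4, miR-21, against 5.63% of the shared miRNAs. With so few miRNAs, counts of 0 and 1 do not set the group apart from the rest of the array.

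Among the antifibrotic miRNAs, miR-29a had a signal of 15.2 in normal and 13.1 in dystrophic serum. The ratio was 0.862 ± 0.323, so both sera lay within the noise of a spot. The difference between the signals was -2.10, compared with an SD of 5.32 for a difference of 2 spots. The ratio was 1.08 when the arrays were not scaled, 1.14 when they were scaled on bright control probes and 1.16 with the blank level and SD of the block that holds the spot. The median log2 ratio of the miRNAs with a ratio moved up by 0.33, 0.40 and 0.39 in these settings.

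miR-29b had a signal of 9.09 in normal serum and 15.5 in dystrophic serum. The ratio of 1.71 ± 0.856 was below the 2-fold limit, and the difference of 6.44 was 1.21 times its SD. When all blank spots were used for the SD, the difference was 0.670 times the SD. With so small a normal signal the ± of the ratio is only approximate. The normal value lay close to the detection limit. Its spot read 127 against a limit of 126, 2.22 SD above the blank spots, and 8.10% of blank spots there were as bright. On the dystrophic array the spot was 4.56 SD above the blank spots, and 1.99% of them were as bright.

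miR-29c had a signal of 13.2 in normal and 17.7 in dystrophic serum. The ratio was 1.35 ± 0.493, and the difference of 4.59 was 0.861 times its SD, again within the noise of a spot. The spots were 3.21 SD and 5.21 SD above the blank spots of their arrays. The ratio was above 1 in each of the 11 alternative processings that gave one, but relative to the median of all shared miRNAs its log2 ratio ran from -0.02 to 0.36.

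The changes of the 3 antifibrotic miRNAs differed from each other by about the noise of a spot or less. On the log2 scale, the ratio of miR-29b exceeded that of miR-29a by 0.99 (SD 0.90). The ratio of miR-29c exceeded that of miR-29a by 0.65 (SD 0.76). The median ratio of the family was 1.35, inside the middle range of all 142 shared miRNAs, whose quartiles were 0.806 and 1.58 around a median of 1.09.

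The profibrotic miR-21 had a signal of 22.0 in normal serum and 8.87 in dystrophic serum. The ratio was 0.403 ± 0.172, which is 2.48-fold lower in dystrophic serum. The difference was -13.1, or -2.47 times its SD. When all blank spots were used for the SD and no outlying ones were left aside, it was -1.37 times the SD. Lower ratios were measured for miR-451, miR-16 and miR-20a, at 0.196, 0.346 and 0.348, but the place of miR-21 in this order is uncertain, because its dystrophic spot was not clear of the background.

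The change of miR-21 differed from that of miR-29b by -2.08 on the log2 scale (SD 0.95) and from that of miR-29c by -1.74 (SD 0.81). From that of miR-29a it differed by -1.10 (SD 0.82). With the SD of all blank spots the SDs were 1.71, 1.45 and 1.46, and the differences were -1.22, -1.20 and -0.752 times these. The values rest on spots close to the background, that of miR-21 in dystrophic serum and that of miR-29b in normal serum. These differences compare changes and not amounts, since the brightness of a spot also depends on its probe.

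Because the median log2 ratio of the shared miRNAs was 0.13 and not 0, the changes were also set against it. Relative to that median the log2 ratio was -1.44 for miR-21, -0.34 for miR-29a, 0.65 for miR-29b and 0.30 for miR-29c. A relative value of this kind does not depend on the factor by which an array is multiplied. Over the alternatives that gave one, it ran from -1.44 to -0.23 for miR-21, from -0.34 to -0.10 for miR-29a and from -0.00383 to 0.98 for miR-29b. The ends at -0.23, -0.10 and -0.00383 came without background subtraction, which draws ratios toward 1 by construction. For miR-21 a fitted background (normexp), which does the same, gave -0.37. The other alternatives with a value for miR-21 gave -1.44 to -1.36, and 6 gave none.

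**Figure D1:**
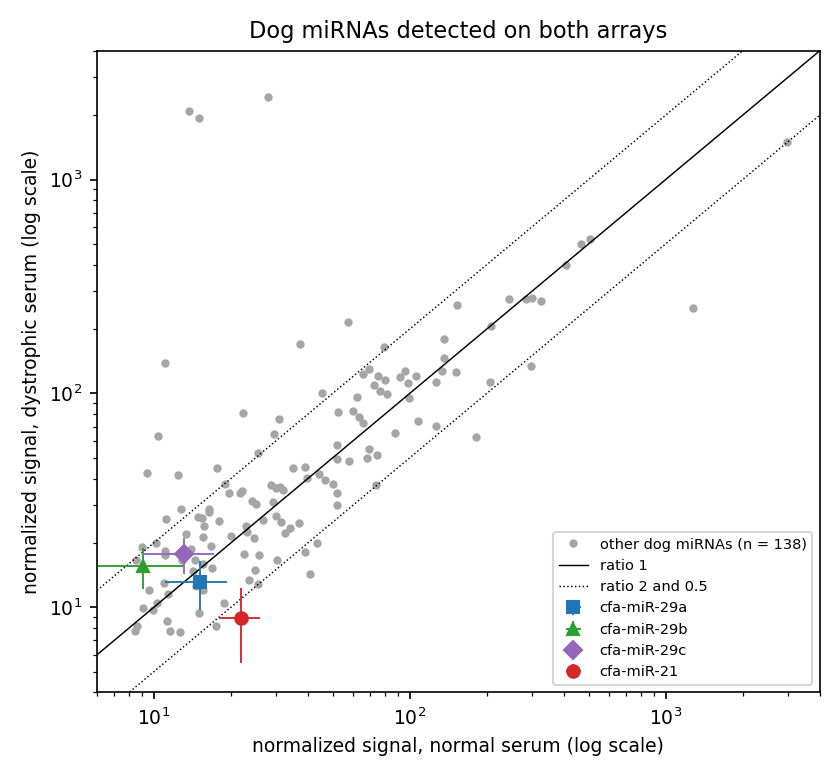
Normalized signals of the 142 dog miRNAs detected in both sera, normal on the x axis and dystrophic on the y axis (log scales); colored symbols are the 4 fibrosis miRNAs, bars are ± 1 SD of the blank spots, and lines mark ratios of 1, 2 and 0.5. miR-21 lies below the line for 0.5 with a bar that reaches across it, miR-29b and miR-29c lie above the line for 1, and the bars of miR-29a cross it; miR-29a lies above that line when the arrays are not scaled, are scaled on bright control probes, or take the blank level and SD of the block.

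The dystrophic value of miR-21 was only just above the background. Its spot read 139 on the normal array, 5.38 SD above the blank spots, and 127 on the dystrophic array, 2.61 SD above them. Of the 32 negative-control spots, 8 were as bright on the normal array and 26 on the dystrophic array. Of the 181 spots with no probe named, 12 and 31 were. The normal level was therefore better separated from the background than the dystrophic level, though neither was clear of it.

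The position of the spot also bears on this value. An array has 32 blocks, each with 44 blank spots, and miR-21 lies in block 1. The mean of the blank spots of that block was 121 on the normal array, the fifth highest block, and 125 on the dystrophic array, the highest. The spot of miR-21 was 18.1 units above its own block on the normal array and 1.95 units above it on the dystrophic array. None of the 44 blank spots of the block was as bright as miR-21 on the normal array, and 12 of 44 were on the dystrophic array.

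When the blank level of the block was subtracted in place of that of the array, miR-21 was not detected in dystrophic serum. It was then at least 2.51-fold lower than in normal serum, with a normal signal of 18.3 set against the lowest detected dystrophic signal of 7.29. This bound rests on the SD of the whole array. With the SD of the block itself, which was 6.83 units on the dystrophic array, the detection limit at that spot was a signal of 13.6. The normal signal of 17.2 was 1.27 times that limit, so the bound fell to 1.27-fold. The size of the miR-21 difference was thus not fixed by these spots.

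The miR-29 spots were near the background too. The number of negative controls at least as bright as miR-29a was 13 of 32 for normal and 19 of 32 for dystrophic serum. For miR-29b these counts were 21 and 15, and for miR-29c 18 and 12. Their spots were also read against their own blocks. miR-29a was 16.7 units above its block on the normal array and 18.6 units on the dystrophic array. miR-29c was 14.7 and 20.6 units above its block. miR-29b was 8.46 units above its block on the normal array, where 4 of 44 blank spots were as bright, and 22.3 units on the dystrophic array, where none was. The low normal value is the uncertain side of the miR-29b ratio, as the low dystrophic value is for miR-21.

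**Figure D2:**
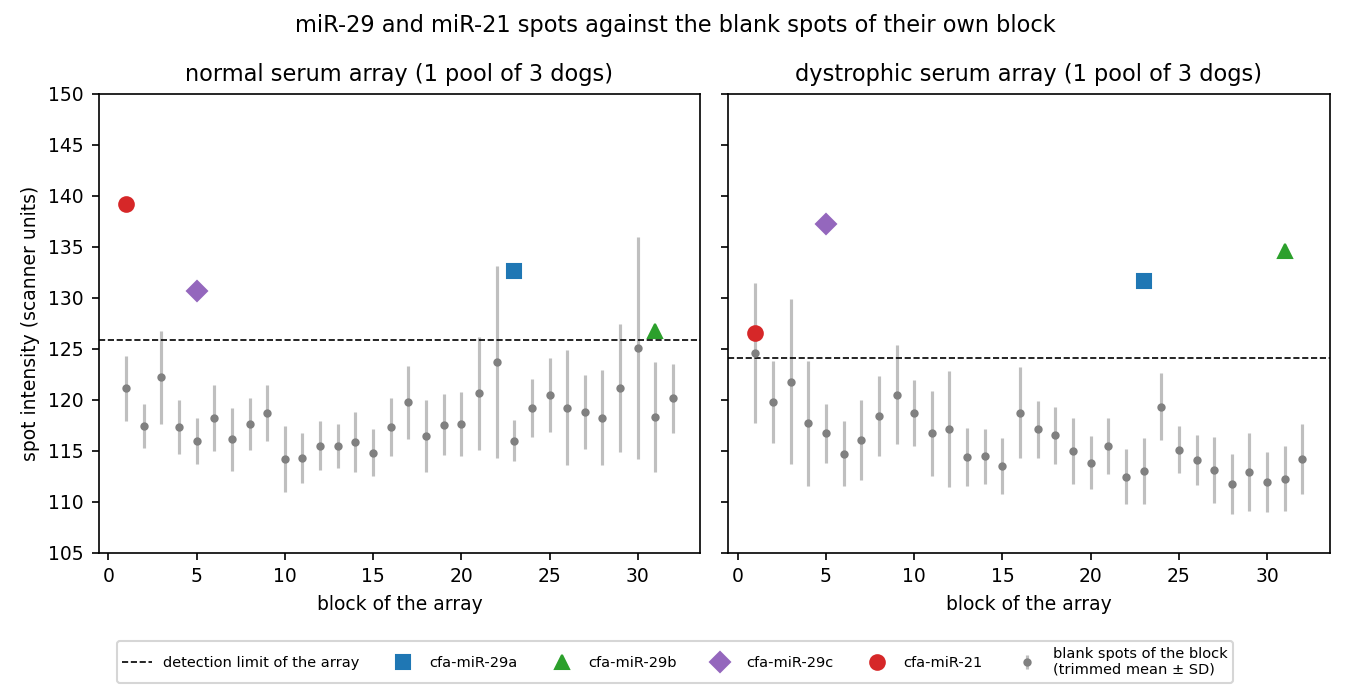
Spot intensity (scanner units) of the 4 fibrosis miRNAs at the block that holds them, with the trimmed mean ± SD of the blank spots of each of the 32 blocks in gray and the detection limit of the array as a dashed line. On the dystrophic array the miR-21 spot, at 127, lies within 1 SD of the blank spots of block 1, which had the highest blank level of that array.

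The dog miRNAs closest in signal over the 2 arrays were found by the distance between log2 signals. Closest to miR-29a were miR-18a (distance 0.08), miR-184 (0.12) and miR-151 (0.20). Closest to miR-29c were miR-371 (0.10), miR-124 (0.12) and miR-532 (0.16). For miR-29b they were miR-362 (0.14), miR-204 (0.30) and miR-488 (0.34). For miR-21 they were miR-195 (0.33), miR-15a (0.36) and miR-361 (0.56). With 2 arrays, and signals that also depend on the probe, such closeness says only that the spots read alike, and the ratios of these neighbors are similar by choice.

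In RefSeq, with the dog genome assembly UU_Cfam_GSD_1.0, the 4 miRNAs matched 6 genes by name. MIR29A and MIR29B-1 are next to each other, and both overlap the noncoding gene LOC102155521. MIR29C-2 is next to MIR29B-2. MIR29C-1 lies on the other side of LOC609365. A mature miR-29b or miR-29c can come from either of its genes, so the array values cannot be assigned to a gene. MIR21 has PTRH2 as its nearest listed gene on one side.

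Other miRNAs linked by general knowledge to less or more matrix were read for comparison. Of 22 miRNAs linked to less matrix, the miR-29 family included, 15 were detected in both sera, 5 had a ratio above 2 and 0 had a ratio of 0.5 or less, next to 13.4% and 5.63% of all shared miRNAs. Their median ratio was 1.07, and 1.01 without the miR-29 family, next to 1.09 for all shared miRNAs. The 5 were miR-133a, miR-133b and miR-133c, which are also muscle miRNAs, with ratios of 128 ± 34.9, 87.1 ± 12.8 and 152 ± 45.3, and miR-30a and miR-30d with 2.19 and 2.07. The miR-133 forms belong to 1 family but were counted separately, as were the miR-30 forms. In normal serum the spots of miR-133a and miR-133c read 132 and 131, as did the median negative control at 131, so the size of these ratios is uncertain. The miR-29 family, with no ratio above 2, was not among the 5.

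Of 9 miRNAs linked to more matrix, 6 were detected in both sera, miR-21 among them. It was the only one of the 6 at 0.5 or less and none was above 2, next to 5.63% and 13.4% of all shared miRNAs. This count depended on the scaling. With scaling on shared miRNAs, 19 of the 142 were at 0.5 or less, compared with 8 as reported. Without scaling, miR-21 itself had a ratio of 0.507. The median ratio of the 6 was 0.531, and 0.555 without miR-21, next to 1.09 for all shared miRNAs. miR-199 had signals of 25.5 and 12.8, a ratio of 0.504 ± 0.156. Its dystrophic spot read 131, below the median negative control of that array at 134, so the size of this ratio is uncertain. miR-145, a miRNA of smooth muscle, had signals of 73.6 and 37.2, a ratio of 0.506 ± 0.0541. Both ratios lay just outside the limit of 0.5. miR-221 had a ratio of 0.555, miR-192 of 0.889 and miR-214, the only one above 1, of 1.16. Of the rest, miR-222 was detected in normal serum alone, miR-155 in neither, and miR-34a had a spot marked unusable for dystrophic serum. That unusable spot read 204, higher than the 129 of miR-34a on the normal array.

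Blood cells release miRNAs into serum, and miRNAs known from them were read beside the fibrosis miRNAs. Of 4 red-cell miRNAs, 3 were on the array. miR-451, the brightest of them, had a signal of 1276 in normal and 250 in dystrophic serum, and miR-16 had 182 and 62.7. miR-144 was detected in neither serum. miR-185, also counted among red-cell miRNAs but not on this list, went the other way and was detected only in dystrophic serum. Its signal there was 11.4, and its spot of 130 was below the median negative control of that array at 134. Both miR-451 and miR-16 had a ratio of 0.5 or less, next to 5.63% of all shared miRNAs. The summed signal of those detected in both, in which bright probes weigh most and which is no measure of amount, was 1457 in normal and 313 in dystrophic serum.

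Of 4 miRNAs of leukocytes and platelets, miR-223 had a signal of 206 in normal and 113 in dystrophic serum. miR-150 had 87.9 and 65.4, and miR-142 had 12.8 and 28.7. miR-126 was detected in neither serum. Of the 3 with a ratio, 1 was above 2 (miR-142, 2.24 ± 0.765) and 0 were at 0.5 or less, next to 13.4% and 5.63% of all shared miRNAs. The normal spot of miR-142 read 130, below the median negative control at 131, so the size of its ratio is uncertain. The summed signal of the 3 was 306 and 207. The lower signals of miR-451 and miR-16 thus stood beside the lower miR-21 signal in the dystrophic pool, and their part in the miR-21 result was not tested.

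**Figure D3:**
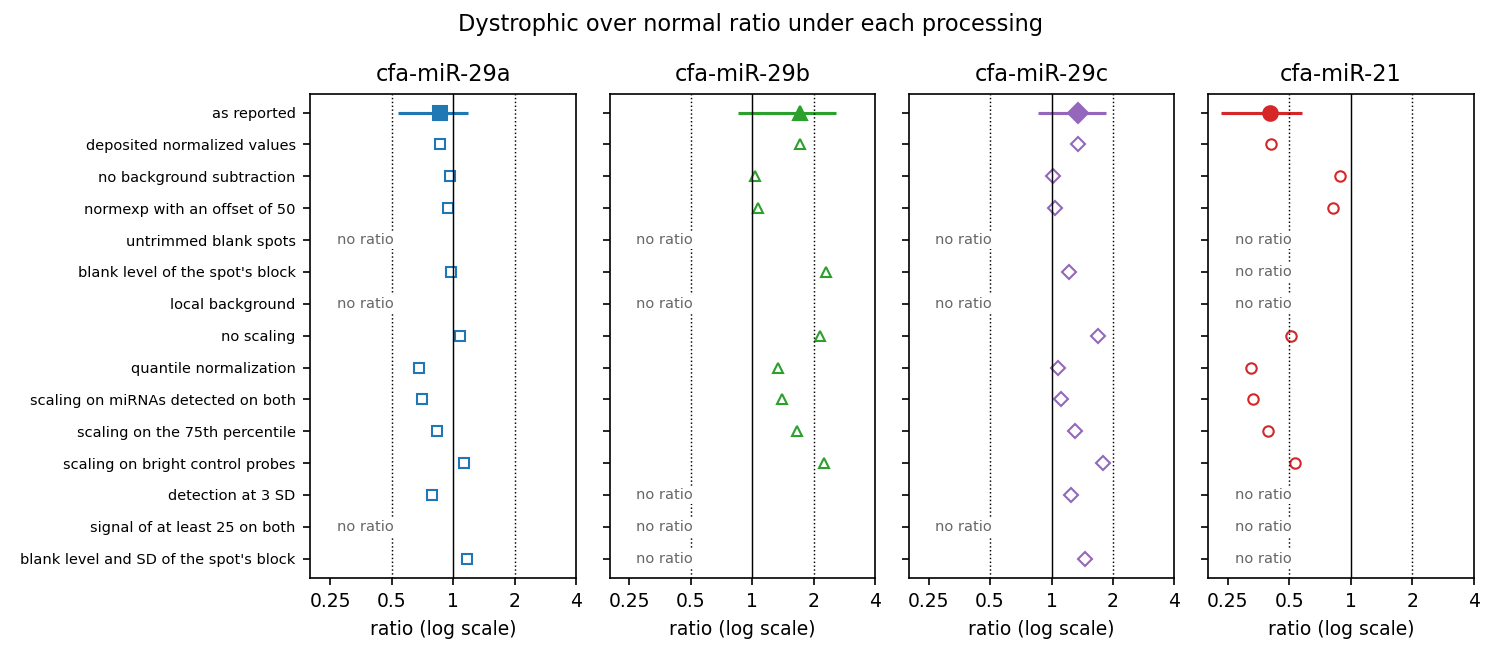
Dystrophic over normal ratio (log scale) of each fibrosis miRNA as reported (filled symbol, bar ± 1 SD from the blank spots) and under 14 alternative processings (open symbols); lines mark ratios of 0.5, 1 and 2, and processings in which a spot was not detected on both arrays give no ratio. Ratios of miR-21 ran from 0.325 to 0.884, all below 1, and those of miR-29a from 0.684 to 1.16, on both sides of 1.

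The miR-21 ratio depended on the way the background was handled. Without background subtraction it was 0.884, and with a fitted background (normexp) it was 0.817, both outside the fold limit. It was below 1 in each of the 8 alternatives that gave a ratio and 0.5 or less in 4 of them. For miR-29b the ratio ran from 1.03 to 2.30 over 9 alternatives. It passed 2 in 3 of them, at 2.30 with the blank level of the block, 2.15 without scaling and 2.25 with scaling on control probes. The last 2 settings raised the ratios of all miRNAs alike, and 34 and 40 of the 142 were then above 2, compared with 19 as reported. When the SD of the block also set the limit, miR-29b was not detected in normal serum and had no ratio.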

How the data were processed

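Serum miRNAs of both pools were labelled with Cy5 and hybridized to 3D-Gene arrays, which have 1 color. The authors deposited the scanner output, which gives for each spot the median intensity at 635 nm, joined by the scanner software over 3 gains, and a table of globally normalized intensity values. The gains were not analysed here one by one. Signals were recomputed from the scanner intensity, by subtraction of the trimmed mean of the 1408 blank spots and scaling to a median of 25 (factors 1.04 for normal and 0.827 for dystrophic serum). They differed from the deposited intensity values by at most 0.0498, that is by rounding, and the deposited values served as an alternative. Spots marked unusable were left out. The limits of above 2 and 0.5 or less follow the study. Each array has 1 spot per dog miRNA and each group 1 array, which limits the precision.

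The miRNAs named are the 4 of the miR-29 family and miR-21, the 3 nearest to each in log2 signal, members of the matrix lists past the fold limits, and the blood-cell miRNAs. The other profibrotic miRNAs, miR-185 and those with lower ratios than miR-21 were chosen after their values were seen. The members and the lists were chosen with earlier results of these data known, and the lists come from general knowledge. Alternatives concerned the source of values, background, scaling, detection and dim signals. Of the 14, 1 was added after the data were seen: the SD of the block for detection, since the block alternative had kept the SD of the array, a choice also made after the data were seen. The steps were tested on simulated data, in which most miRNAs were brighter than these 4 and the blank level did not differ between blocks. That test therefore says nothing about ratios as close to the background as theirs. Python 3.11.15, numpy 2.4.6, pandas 2.3.3, matplotlib 3.10.9, R 4.3.3 and limma 3.58.1 (normexp, offset 50) were used.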

Additional observations from a re-analysis of the deposited data

Results flagged for a closer look

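The local background, read around each spot and not used in the ratios, was higher on the dystrophic than on the normal array around 3 of the 4 fibrosis miRNAs. Around miR-29a it was 97.1 scanner units on the normal array and 122 on the dystrophic array, and 0.355% of the blank spots of the latter had a local background as high. Around miR-21 it was 97.9 and 113, and 0.568% of the blank spots of the dystrophic array were as high. Around miR-29c it was 96.5 and 99.7, a difference similar to that between the medians of the blank spots, 77.4 and 80.8. Around miR-29b it was 88.1 and 86.3. The 8 spots next to miR-21 had a mean intensity of 149 in the normal and 179 in the dystrophic pool. For the 3 next to miR-29c it was 120.3 and 146. For the 3 next to miR-29a it was 126 and 131, and for the 8 next to miR-29b 131 and 128. These neighbors include probes with signals of their own, so the means are no measure of background. Next to miR-21, miR-27a read 195 and 255 and miR-1306 read 188 and 248. The brightest neighbor of miR-29c, a control probe, read 129 and 192. When the local background was used in place of the blank spots, none of the 4 had a ratio, since only miR-29b, and only in dystrophic serum, was detected.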

How the results depend on the processing

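Of the 14 alternatives, 8 gave a miR-21 ratio, all below 1. With no background subtracted it was 0.884 and under normexp 0.817, where the background left in both spots or the offset draws ratios toward 1 by construction. It was 0.507 without scaling and 0.531 with scaling on control probes, just outside the limit of 0.5. With untrimmed blank spots, either block alternative, the local background, a limit of 3 SD or a minimum signal of 25, miR-21 had no ratio. The local background, untrimmed blank spots and the minimum signal of 25 left none of the 4 with a ratio. miR-29a had one in 11 alternatives, 8 below 1 and 3 above, miR-29b in 9 and miR-29c in 11, all above 1. The share of shared miRNAs past the fold limits was 19.0%. It was 4.93% without background subtraction, 4.93% with normexp, 38.1% with the local background (21 miRNAs left) and 30.3% with scaling on 10 bright control probes. Scaling on control probes raised all ratios alike, so that 40 were above 2 and 3 at 0.5 or less, compared with 19 and 8 as reported. Why the share was higher with the local background was not tested. Of the miRNAs past the limits, 70.4% were higher in dystrophic serum, compared with 91.9% without scaling, 93.0% with control probes, 38.7% with scaling on shared miRNAs and 31.3% with quantile normalization. These scalings moved the median log2 ratio by 0.33, 0.40, -0.28 and -0.39. Scanner gains were not run as alternatives. All 4 fibrosis miRNAs were within 6 SD of the blank spots, which limits every ratio given for them.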
